A study of Mus musculus with 68 samples.

Results

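The genes described here are the protein-coding genes of mouse chromosome 14 (mm10 assembly) that start after 70 Mb and end at or before the last whole Mb ahead of 122021034, the end of Ubac2, with a mean above 1 CPM (counts scaled to a common library size) in the 12 libraries of the POLE4 experiment and without Klf5. The rule left 94 genes, of 139 protein-coding gene rows between the limits and 55335 gene rows in each table. They run from Bin3, which starts at 70100105, to Dock9, which ends at 121797837. The stretch was selected on the levels of its genes in the knockout clone POLE4-KO#1 over WT#1, so these values are given as a description with no test. POLE4-KO#2 and POLE4-KO#3 entered the rule through the mean CPM, and the stretch was proposed with earlier results of these tables known.

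The RNA came from ESCs of 1 mouse line, E14JU, of 129/Ola origin, grown on gelatin in serum with LIF, and the libraries were depleted of rRNA and kept the strand. In the POLE4 experiment, 3 clones lacking the DNA polymerase epsilon subunit POLE4 (POLE4-KO#1, POLE4-KO#2 and POLE4-KO#3) were set against WT#1, with 3 libraries each. In the rescue experiment, MCM2-2A#2, in which point mutations disable the part of MCM2 (a subunit of the helicase at replication forks) that holds histones, and MCM2-R#2, made from it by restoring the wild-type sequence, were set against WT#1, with 4 numbered replicates each. These replicates are called cultures here, although the labels do not say whether they were grown apart. In the clone experiment, 5 MCM2-2A clones (#4 to #8) and 6 WT clones (#2, #3, #4, #6, #7 and #8) were sequenced with WT#1 in an August batch of 24 libraries, MCM2-2A#1 and MCM2-2A#3 with WT#1 in a March batch of 9, and MCM2-2A#2 with MCM2-2A#1, 6 libraries, in a January batch. The January libraries of a further clone, WT#5, were not analysed here because no column name matched them. The 4 MCM2-R#2 libraries are labelled wild type, and the line number in their titles differs from that of their columns, so the name MCM2-R#2 rests on the study's sample table. Each line is 1 clone, so a genotype with 1 clone cannot be told apart from that clone, and p-values between single clones measure the spread between libraries of those clones.

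Genes that lie side by side on a chromosome are not a pathway, and most of these 94 do unrelated work. Among them are Rb1, the retinoblastoma protein that restrains E2F transcription factors before S phase, Dis3, a catalytic RNase of the nuclear RNA exosome, Ipo5 and Xpo7, carriers that move proteins through nuclear pores, and Tpt1, the translationally controlled tumour protein. Others act in signalling, such as the growth factor Fgf17, the protease Bmp1 that trims procollagens, and Spry2, a feedback inhibitor of receptor tyrosine kinases. What the genes share is position, so that a summary over them reads the RNA output of a stretch of chromosome rather than of a process.

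Several members lie head to head, with start sites that share one short stretch of DNA. The bases between 2 such pairs of starts are shown because the first pair, Mzt1 and Bora, belongs to the highest values described here and the second, Gpalpp1 and Nufip1, is a pair of the same layout elsewhere in the stretch. The sequences are RefSeq's for GRCm38.p6, with CG dinucleotides in capitals.
Mzt1 to Bora, chr14:99046135-99046221, minus strand: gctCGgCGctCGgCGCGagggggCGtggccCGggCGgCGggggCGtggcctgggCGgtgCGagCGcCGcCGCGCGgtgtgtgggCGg
Gpalpp1 to Nufip1, chr14:76110761-76110890, plus strand: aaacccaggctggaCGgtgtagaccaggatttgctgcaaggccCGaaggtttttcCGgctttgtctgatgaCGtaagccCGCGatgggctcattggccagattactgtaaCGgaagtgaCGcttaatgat
The 87 bases between the starts of Mzt1 and Bora hold 18 CG, against 8 CG in the 130 bases between Gpalpp1 and Nufip1. The 300-base RefSeq window around the Mzt1 start holds 51 CG, a number reached by 0.715% of the 32851 windows of the table, and the window of Nufip1 holds 19, reached by 28.1%. A table entry was found for 61 of the 94 genes. Nothing about the control of these genes was read from the letters.

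Libraries of the POLE4 experiment held 18369196 to 26975105 counts in knockout clones and 20477221 to 26098796 counts in WT#1. Libraries of the clone experiment held 27854706 to 67467849 counts in MCM2-2A clones and 30046007 to 58449563 counts in WT clones, and rescue runs held 23161127 to 35602583 counts over the 3 lines. Pole4, the deleted gene, averaged 3.22 ± 0.50 CPM in POLE4-KO#1, 7.21 ± 0.94 CPM in POLE4-KO#2 and 3.74 ± 1.03 CPM in POLE4-KO#3, against 59.8 ± 2.9 CPM in WT#1 (SD, n = 3 each). The point mutations of MCM2-2A cannot be read from counts per gene, but Mcm2 RNA itself averaged 186.5 to 266.5 CPM in the 5 August MCM2-2A clones, and the clones labelled WT#6 and WT#8 had 215.5 and 230 CPM, within that range, whereas the other August WT clones had 294 to 405 CPM. In the rescue experiment Mcm2 averaged 212.8 CPM in the reverted line MCM2-R#2 and 223.2 CPM in MCM2-2A#2, against 420 CPM in WT#1. A low Mcm2 level was thus also found without the mutation and does not by itself tell the genotype. The summed level of 8 markers of ESC identity was 2500 to 4570 CPM over the libraries, and none of them was at 0 in any library.

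In POLE4-KO#1 the 94 genes were high as a block. Their median log2 fold change over WT#1 was 0.67 (quartiles 0.38 and 0.90), a fold of 1.60, and 83 of them lay above 0, whereas the median of all genes tested was 0.00070 and 50.1% lay above 0. Read library by library, the median log2 ratio of the members to the WT#1 mean was 0.63, 0.61 and 0.64 in the 3 POLE4-KO#1 libraries, against -0.025 to 0.010 in the 3 WT#1 libraries. Summed over the 94 genes, POLE4-KO#1 held 7466 ± 204 CPM, against 4498 ± 74.9 CPM in WT#1 (SD, n = 3 each). These are bulk libraries, so more cells with a high level and a higher level in each cell cannot be told apart, and DNA was not analysed here.

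A gene was called when its adjusted p was under 0.01 (edgeR quasi-likelihood test, Benjamini-Hochberg over all genes) and its log2 fold change exceeded 0.58 in size. By this rule 50 of the 94 genes were called higher in POLE4-KO#1, where 3.63% of all genes tested were, and 3 were called lower, where 7.97% of all genes were. These 2 counts restate the choice of the stretch and carry no weight as evidence. Dropping the limit on the fold put 69 genes higher and 3 lower at an adjusted p below 0.05, where 12.5% and 15.3% of all genes were. The remaining 41 genes under the stricter rule were mostly positive too, since the limit of 0.58 sits close to the median of the stretch.

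**Figure D1:**
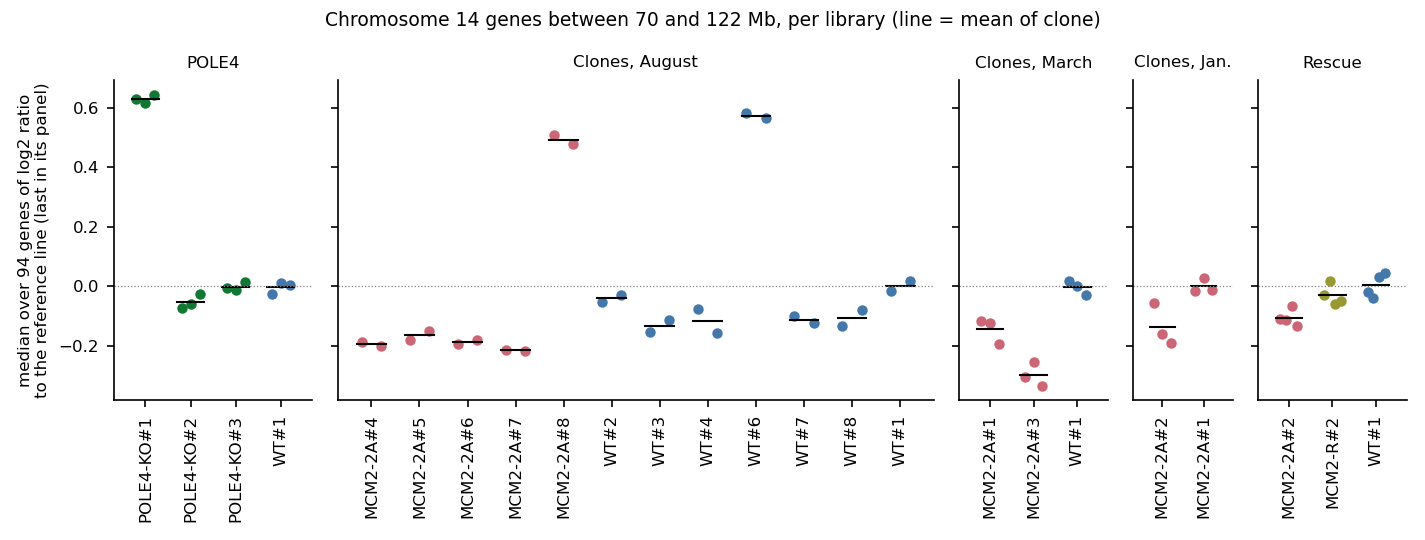
Median over the 94 genes of the log2 ratio of each library to the mean of the reference line of its experiment or batch (y axis), with 1 point per library, a line at the mean of each clone and the reference line last in each panel. POLE4-KO#1 (0.61 to 0.64), MCM2-2A#8 (0.48 and 0.51) and WT#6 (0.56 and 0.58) lie well above 0, and the libraries of all other clones lie between -0.33 and 0.05.

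The height in POLE4-KO#1 was present at each level of expression, with levels read in WT#1 alone. The 21 members with a WT#1 mean above 50 CPM had a median log2 fold change of 0.71 with a lowest value of 0.32, so that 21 of 21 lay above 0. The 44 members between 10 and 50 CPM had a median of 0.69, with 40 above 0, and the 29 members up to 10 CPM had a median of 0.53, with 22 above 0. The 3 members Gfra2, Pcdh17 and Trim52 had a WT#1 mean at or below 1 CPM and passed the limit on CPM only through knockout clones, Gfra2 chiefly through POLE4-KO#1, where it is high.

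Ipo5, an importin that carries ribosomal proteins and histones into the nucleus, was the most abundant member. Its level was 1360, 1240 and 1400 CPM in POLE4-KO#1, against 890, 826 and 886 CPM in WT#1, a log2 fold change of 0.62 (SE 0.07). Tpt1 had 946, 954 and 895 CPM in POLE4-KO#1, against 619, 632 and 639 CPM in WT#1 (log2 fold change 0.56, SE 0.08). For both genes every POLE4-KO#1 library lay above every WT#1 library. Of the other 8 members with the highest levels, Xpo7 stood at 0.71, Tsc22d1, a leucine zipper protein of the TSC22 family, at 0.70, Sugt1, a co-chaperone of HSP90, at 0.80, Rbm26, an RNA-binding protein, at 0.89, Akap11, an anchor for protein kinase A, at 0.58 and Spry2 at 0.32, all on the log2 fold change scale. Abcc4, an exporter of cyclic nucleotides and prostaglandins, was higher still, with 208, 223 and 218 CPM in POLE4-KO#1, against 93.2, 98.1 and 93.8 CPM in WT#1, a log2 fold change of 1.19 (SE 0.06).

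Sorted by role, the members that handle RNA and transcription stood at a median log2 fold change of 0.79 in POLE4-KO#1, with 15 of 19 called higher. Gtf2f2, a subunit of the general factor TFIIF, was at 0.74, Zc3h13, a subunit of the writer of N6-methyladenosine, at 0.84, and Med4 of Mediator and Polr3d of RNA polymerase III, at 0.42 and 0.43, did not reach the fold limit. Members that fold, move or degrade proteins had a median of 0.67, with 11 of 17 called higher, among them Dnajc3, an endoplasmic reticulum co-chaperone, at 1.20. Members with metabolic or mitochondrial roles had a median of 0.56, with 6 of 12 higher. Signalling genes and receptors had a median of 0.42, with 6 of 17 higher, such as Dock9, an exchange factor for CDC42, at 0.97, and with 2 lower, Bmp1 and Farp1. The lists were drawn up with earlier results of these data known, and they overlap. Mycbp2 is counted in the first and the second, and Uggt2 in the second and the third. The first of them also holds the mitotic genes Mzt1 and Bora, as well as Lmo7 and Kctd12. Over all 94 members 50 were called higher, and no test compares the lists with each other.

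The 6 members with the largest log2 fold changes in POLE4-KO#1 were Gfra2, Mzt1, Dzip1, Rb1, Elf1 and Fgf17. Gfra2, a co-receptor for neurturin, was at 1.71 (SE 0.34) on low levels of 2.24, 1.60 and 2.42 CPM, against 0.246, 0.884 and 0.724 CPM in WT#1. Since Gfra2 passed the CPM limit chiefly through POLE4-KO#1, its rank carries no weight. Mzt1 followed at 1.65 (SE 0.09) and Dzip1, a protein of the ciliary base, at 1.64 (SE 0.11), with 32.3, 34.8 and 34.2 CPM in POLE4-KO#1, against 10.2, 12.1 and 9.99 CPM in WT#1. Rb1 had 41.8, 44.6 and 44.1 CPM in POLE4-KO#1, against 11.9, 14.8 and 15.8 CPM in WT#1, a log2 fold change of 1.62 (SE 0.12). The transcription factor gene Elf1 was at 1.56 (SE 0.12) and Fgf17 at 1.52 (SE 0.13). Fgf17 and Gfra2 lie close together in the first run of the stretch, and Rb1, Elf1, Mzt1 and Dzip1 lie in other places.

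The neighbours of Mzt1 were Bora, an activator of Aurora A and PLK1 kinases, Dis3, and Pibf1, a centrosomal protein, which together with Mzt1, a small protein that helps recruit gamma-tubulin complexes, lie between 99034544 and 99254493. The 4 genes were picked out after their values were seen, so they get no test as a group. Their log2 fold changes in POLE4-KO#1 were 1.65 for Mzt1, 1.44 for Bora, 1.19 for Dis3 and 1.43 for Pibf1, with a median of 1.43, against a median of 0.64 over the other 90 genes. Of those 90, 10 stood above the lowest of the 4. Mzt1 had 96.8, 113 and 109 CPM in POLE4-KO#1, against 32.5, 32.2 and 37.0 CPM in WT#1. Bora had 101, 112 and 110 CPM in POLE4-KO#1, against 39.8, 38.5 and 41.0 CPM in WT#1. Dis3 had 420, 406 and 447 CPM in POLE4-KO#1, against 179, 183 and 196 CPM in WT#1. Pibf1 had 39.2, 37.8 and 41.1 CPM in POLE4-KO#1, against 13.5, 15.6 and 14.6 CPM in WT#1. In all 4 genes the lowest POLE4-KO#1 library lay above the highest WT#1 library.

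**Figure D2:**
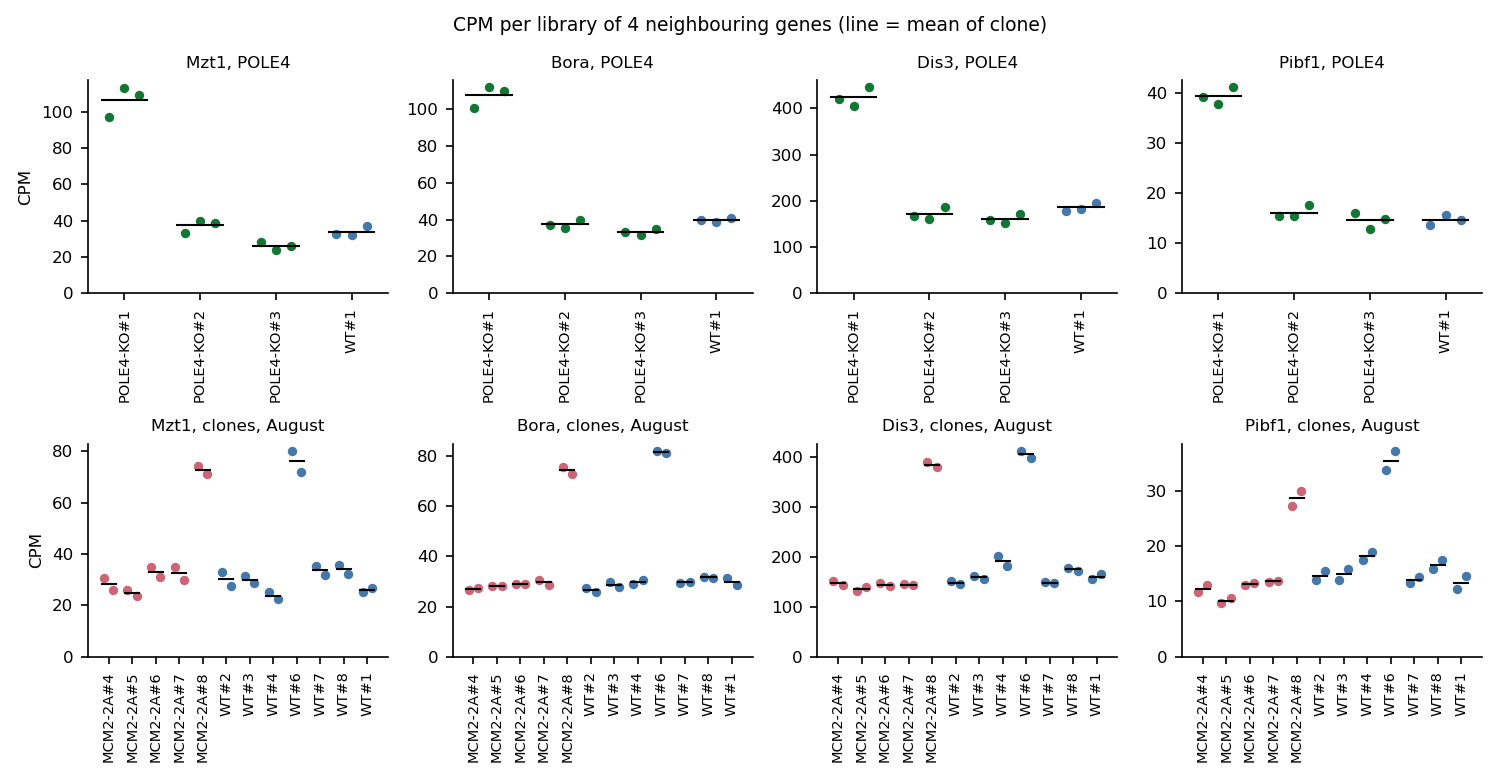
CPM (y axis, from 0) of Mzt1, Bora, Dis3 and Pibf1 in every library of the POLE4 experiment (upper row) and of the August clones (lower row), with 1 point per library and a line at the mean of each clone, WT#1 last. POLE4-KO#1, MCM2-2A#8 and WT#6 stand apart from the other clones in all 4 genes, for Dis3 at 406 to 447, 379 and 389, and 398 and 412 CPM, against 155 to 196 CPM in the WT#1 libraries of both experiments.

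Along the stretch, the height in POLE4-KO#1 was present in each of the larger runs of genes. Parting the members wherever 1.5 Mb or more separated neighbours gave 8 runs. The first, 20 genes from Bin3 to Gfra2, had a median log2 fold change of 0.49, the next, 35 genes from Fndc3a to Sugt1, 0.70, the 20 genes from Mzt1 to Trim52, 0.86, and the last, 14 genes from Tgds to Dock9, 0.62. In the sparse parts between these runs Pcdh17 was at 0.32, Diaph3 and Tdrd3 had a median of 0.63, and the lone genes Slitrk5 and Tpm3-rs7 were at -0.13 and -0.16. The level of Tpm3-rs7 differed widely between experiments, with 1.52 CPM in the rescue WT#1 and 117 CPM in the August WT#1, so its value is an uncertain reading of its place.

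The values just inside and outside the limits of the rule place its edges. Bin3, the first member, was at 0.57 in POLE4-KO#1. Going down from 70 Mb, Rhobtb2 was at 0.66, Tnfrsf10b at 0.62, Chmp7 at 0.39 and R3hcc1 at 0.24. Next came Loxl2 at -0.35, Entpd4b and Entpd4 at 0.61 each and Slc25a37 at 0.65, so high values also occurred before the lower limit. Entpd4b and Entpd4 had the same mean of 4.938 CPM as well, so they may not be separate readings. Farther towards the centromere it was less: the 180 genes of chromosome 14 between 47 and 70 Mb had a median library ratio of 0.11 in POLE4-KO#1. At the upper limit Dock9, the last member, was at 0.97, and the genes beyond it were Ubac2 at -0.16, Timm8a2 at -0.036, Tm9sf2 at 0.08 and Clybl at 0.10. On the limit for abundance, Trim52 (1.11 CPM), Gfra2 (1.19 CPM) and Pcdh17 (1.29 CPM) lay just inside and Pcdh8 (0.778 CPM) and Serp2 (0.711 CPM) just outside. Over the 19 other chromosomes, the median log2 fold change per chromosome in POLE4-KO#1 ran from -0.043 on chromosome 15 to 0.039 on chromosome 16.

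**Figure D3:**
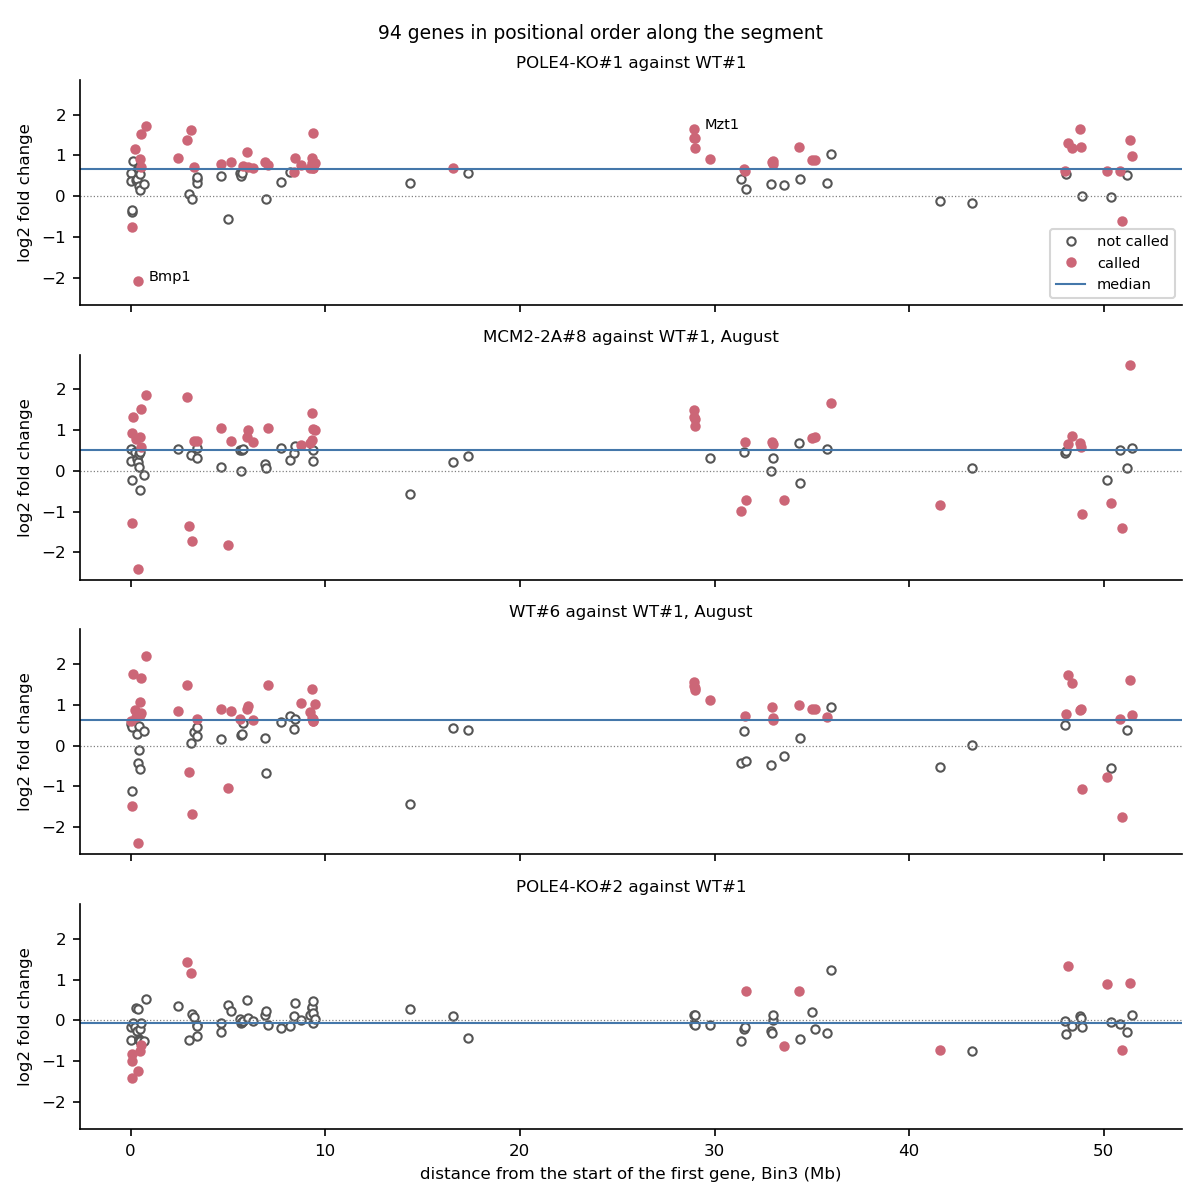
Log2 fold change over WT#1 (y axis) of the 94 genes by distance in Mb from the start of Bin3 (x axis) in POLE4-KO#1, MCM2-2A#8, WT#6 and POLE4-KO#2, with called genes filled and a line at the median. The line lies at 0.67, 0.52, 0.62 and -0.06 in the 4 panels, and in the upper 3 panels filled points above it occur in the runs at both ends and in the middle.

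The other POLE4-KO clones did not share the height. In POLE4-KO#2 the median log2 fold change was -0.056, with 39 genes above 0, and 7 genes rose and 9 fell, where 4.59% of all genes tested rose and 7% fell (edgeR, adjusted p below 0.01). In POLE4-KO#3 the median was -0.0069, and 4 genes rose and 2 fell, where 2.57% of all genes rose and 0.435% fell. Without 1 of the WT#1 libraries (the first in the table), 5 in place of 9 genes fell in POLE4-KO#2, where 5.89% of all genes fell. In POLE4-KO#3 1 in place of 2 fell, where 0.278% of all genes did. Without replicate 2 of POLE4-KO#3, 2 in place of 4 rose there, where 1.71% of all genes rose. Summed over the members, POLE4-KO#2 held 4380 CPM and POLE4-KO#3 4288 CPM, against 4498 CPM in WT#1. In POLE4-KO#2 the first run, from Bin3 to Gfra2, was low, with a median of -0.48. The 180 genes just before it, between 47 and 70 Mb, had a median library ratio of -0.90 in that clone.

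Single members did move in these clones. Rb1 rose in both, by 1.17 in POLE4-KO#2 (adjusted p = 2.9e-06) and 0.80 in POLE4-KO#3 (adjusted p = 0.0005), with 26.3, 34.1 and 35.1 CPM and 24.8, 22.5 and 26.7 CPM, against 11.9, 14.8 and 15.8 CPM in WT#1. Mbnl2, a regulator of alternative splicing, rose by 0.89 in POLE4-KO#2 (adjusted p = 1.8e-06) and 1.15 in POLE4-KO#3 (adjusted p = 6.0e-07), and was at 0.62 in POLE4-KO#1. For these 2 genes the 3 knockout clones lay on the same side of WT#1, in contrast to the stretch as a whole. Fgf17 fell in POLE4-KO#2 (-0.62, adjusted p = 0.0028) and POLE4-KO#3 (-0.95, adjusted p = 0.00039), where it had 14.9, 12.4 and 14.6 CPM and 12.1, 11 and 10.3 CPM, against 26.9, 17.7 and 19.7 CPM in WT#1. POLE4-KO#1, with 63.2, 55.4 and 65.6 CPM, lay on the other side. Elf1 rose by 0.48 in POLE4-KO#2 at an adjusted p of 0.0075, under the fold limit, and Lcp1, an actin-bundling protein of blood cells, rose by 1.21 in POLE4-KO#3 (adjusted p = 0.003).

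Among the August clones, MCM2-2A#8 and the clone labelled WT#6 had high values over the stretch. In MCM2-2A#8 the median log2 fold change over the August WT#1 was 0.52 (quartiles 0.09 and 0.75), with 75 genes above 0, and 37 genes rose and 12 fell, where 6.48% of all genes tested rose and 10.6% fell. In WT#6 the median was 0.62 (quartiles 0.18 and 0.90), with 74 genes above 0, and 48 genes rose and 8 fell, where 4.69% of all genes rose and 12.1% fell. The library medians were 0.51 and 0.48 in MCM2-2A#8 and 0.58 and 0.56 in WT#6, against -0.016 and 0.016 in WT#1. Summed over the members these clones held 6512 and 6840 CPM, against 4373 CPM in WT#1, and the other 9 August clones held 4012 to 4374 CPM. By their labels 1 of the clones is MCM2-2A and 1 is WT, and WT#6 is one of the clones whose Mcm2 level lay in the MCM2-2A range. Other markers moved in these clones. The 8 ESC identity markers had a median log2 fold change of 0.63 in MCM2-2A#8 and 0.59 in WT#6, with Esrrb, Nanog, Tfcp2l1 and Zfp42 called higher in both, and of 0.14 to 0.42 in the other 9 August clones, with at most 3 called. Their summed level was 4040 to 4060 CPM in MCM2-2A#8 and 3680 to 3730 CPM in WT#6, against 2600 to 2730 CPM in WT#1. The 8 primitive endoderm markers summed to 42.7 to 43.2 CPM in MCM2-2A#8, with 5 called higher, and to 17.0 to 17.7 CPM in WT#6, with 1 higher and 1 lower, against 16.6 to 18.6 CPM in WT#1, and none was at 0 in a library. In POLE4-KO#1 no ESC identity marker was called. The part of these markers in the height of the stretch was not tested.

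POLE4-KO#1 and the August clones share no library, but each was set against the clone WT#1, so a trait of WT#1 can enter both lists. The stretch was also selected on POLE4-KO#1. Of the 50 genes called higher in POLE4-KO#1, 40 (80%) rose in WT#6, and they are 83.3% of its 48. Of the same 50, 32 (64%) rose in MCM2-2A#8, and they are 86.5% of its 37. Of the genes called lower, Bmp1 and Farp1 were shared, 66.7% of the 3 in POLE4-KO#1, 16.7% of the 12 in MCM2-2A#8 and 25% of the 8 in WT#6. MCM2-2A#8 and WT#6 were compared with the same WT#1 libraries, and no overlap is given between them. Of the 44 members not called higher in POLE4-KO#1, 5 rose in MCM2-2A#8 and 8 in WT#6. Over all 94 members, 39.4% rose in MCM2-2A#8 and 51.1% in WT#6, and 12.8% and 8.51% fell. Bmp1 and Farp1 each fell in 8 of the 11 August clones. Gfra2, which passed the CPM limit chiefly through POLE4-KO#1, is among the shared risen genes of both clones.

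The highest and lowest members were partly shared with POLE4-KO#1 and partly not. Mzt1, Bora, Dis3 and Pibf1 were at 1.49, 1.32, 1.27 and 1.10 in MCM2-2A#8 (median 1.29, against 0.50 over the other 90 genes) and at 1.56, 1.46, 1.36 and 1.42 in WT#6 (median 1.44, against 0.60), each with an edgeR call. Mzt1 had 74.1 and 71.2 CPM in MCM2-2A#8 and 80.1 and 72.0 CPM in WT#6, against 25.2 and 26.8 CPM in WT#1. Fgf17 rose by 1.53 in MCM2-2A#8 (adjusted p = 3.0e-08) and 1.67 in WT#6 (adjusted p = 1.1e-08), with 40.3 and 41.3 CPM and 40.4 and 48.9 CPM, against 15.5 and 12.9 CPM in WT#1. Gfra2 rose by 1.87 and 2.19, on levels of 3.26 to 5.65 CPM over the 4 libraries of both clones, against 1.29 and 0.691 CPM in WT#1. Rb1, by contrast, was at 0.40 (adjusted p = 0.010) in MCM2-2A#8 and 0.06 (adjusted p = 0.73) in WT#6, with 25.4 and 22.4 CPM and 19.5 and 18.2 CPM, against 16.2 and 20.2 CPM in WT#1. Dzip1 stood at 0.69 and 0.88 and Abcc4 at 0.86 and 1.54 in the same 2 clones, both called in each.

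The other features of the height in POLE4-KO#1 were also seen in these clones. Members above 50 CPM in the WT#1 libraries of the POLE4 experiment had medians of 0.70 in MCM2-2A#8 and 0.81 in WT#6, with 21 of 21 above 0 in each, and members up to 10 CPM had medians of 0.21 and 0.25. The runs from Bin3, from Fndc3a, from Mzt1 and from Tgds had medians of 0.43, 0.55, 0.67 and 0.49 in MCM2-2A#8 and of 0.49, 0.62, 0.82 and 0.71 in WT#6. Of the 8 genes before the lower limit, Slc25a37, Entpd4, Entpd4b, Chmp7 and Rhobtb2 were at 0.38 to 0.68 in MCM2-2A#8 and 0.55 to 0.90 in WT#6, and Loxl2, R3hcc1 and Tnfrsf10b at 0.023 to 0.14 and -0.17 to 0.24. Beyond the upper limit, Ubac2, Timm8a2, Tm9sf2 and Clybl were at -0.15, 0.73, 0.0077 and -0.069 in MCM2-2A#8 and at -0.084, 0.045, 0.14 and 0.45 in WT#6. Medians of the 19 other chromosomes ran from -0.19 to 0.06 in MCM2-2A#8 and from -0.12 to 0.06 in WT#6, with chromosome X lowest in both. Chromosome X was also lowest in MCM2-2A#4, #5, #6 and #7 and WT#4, #7 and #8, clones without a high median. By role, 8 of 19 RNA and transcription genes rose and 1 fell in MCM2-2A#8, and 12 rose and 1 fell in WT#6. Of the 17 genes that fold, move or degrade proteins, 8 rose and 2 fell in MCM2-2A#8, and 10 rose and 2 fell in WT#6. Of 17 signalling genes and receptors, 3 rose and 6 fell in MCM2-2A#8, and 6 rose and 3 fell in WT#6.

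Over the remaining August clones the members lay slightly below WT#1. MCM2-2A#4, #5, #6 and #7 had medians of -0.18, -0.15, -0.16 and -0.20, and WT#2, #3, #4, #7 and #8 had medians of -0.021, -0.13, -0.098, -0.12 and -0.071. Counts of genes that rose and fell were 4 and 19 in MCM2-2A#4 (background 4.6% and 9.55%), 1 and 3 in MCM2-2A#5 (2.18% and 2.12%), 4 and 15 in MCM2-2A#6 (4.49% and 8.76%) and 4 and 18 in MCM2-2A#7 (4.76% and 9.56%). In the WT clones they were 1 and 2 in WT#2 (0.497% and 1.55%), 3 and 14 in WT#3 (1.99% and 6.82%), 0 and 3 in WT#4 (0.828% and 1.49%), 5 and 13 in WT#7 (2.66% and 7.89%) and 4 and 17 in WT#8 (3.48% and 9.88%). Without 1 library the fallen genes were 7 to 11 in WT#3, 6 to 10 in WT#7 and 10 to 16 in WT#8, each lowest without replicate 1 of that clone, where 3.41%, 4.47% and 6.34% of all genes fell. Counts in WT#2 and MCM2-2A#5, fallen genes in WT#4 and WT#6 and risen genes in WT#3 and WT#7 also changed without 1 library. Such fits leave 1 library in a group. For WT#4, DESeq2 also called 0 genes higher. In that clone 34 of the 94 members had an unadjusted p below 0.05 in either direction (edgeR), a larger share than the 19.5% of all genes. These clones share the WT#1 libraries, so a low or high WT#1 value enters each of them.

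**Figure D4:**
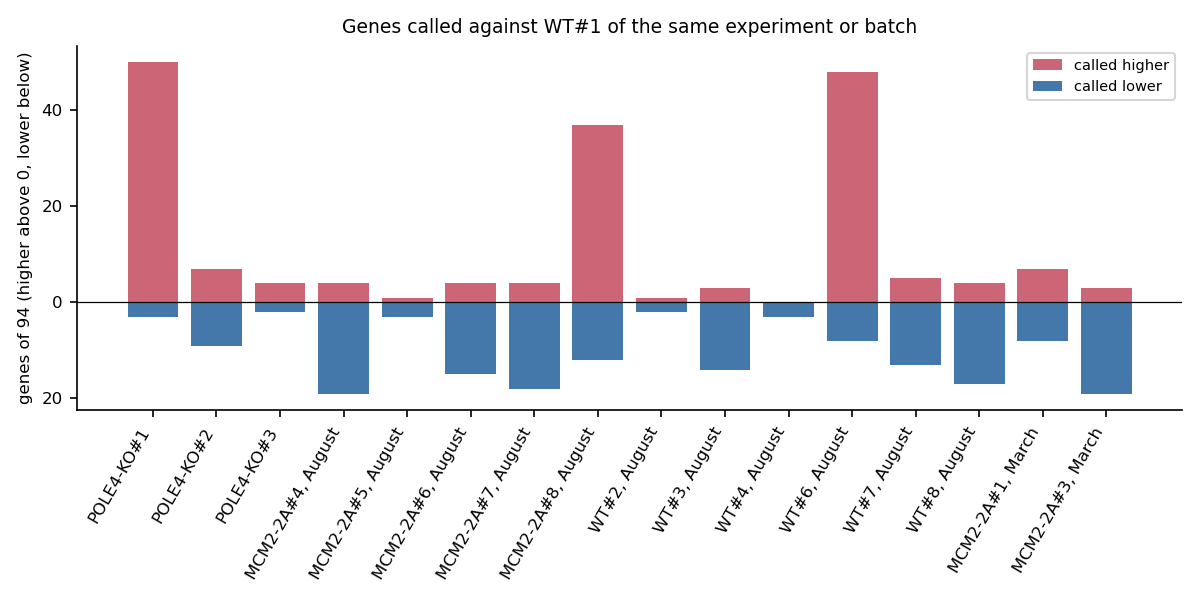
Number of the 94 genes called higher (above 0) and lower (below 0) than WT#1 of the same experiment or batch (y axis) in each clone (x axis). Bars above 0 reach 50 in POLE4-KO#1, 37 in MCM2-2A#8 and 48 in WT#6, and at most 7 elsewhere, whereas bars below 0 reach 13 to 19 in several clones without a high median.

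A small group of members ran against the stretch. Bmp1 was the lowest in POLE4-KO#1, with 3.41, 4.44 and 3.63 CPM, against 17.0, 16.6 and 15.4 CPM in WT#1, a log2 fold change of -2.09 (SE 0.14). It fell by 1.23 in POLE4-KO#2 (adjusted p = 5.5e-06) and rose by 0.58 in POLE4-KO#3 (adjusted p = 0.0069), where it had 22.6, 29.0 and 21.9 CPM. In August Bmp1 fell by 2.42 in MCM2-2A#8 (adjusted p = 1.9e-05) and 2.39 in WT#6 (adjusted p = 2.0e-05), with 3.34 and 2.79 CPM and 3.64 and 2.60 CPM, against 15.6 and 17.6 CPM in WT#1. Its low level was therefore found in clones with and without a high median over the stretch, and it fell in 8 of the 11 August clones.

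The other members called lower in POLE4-KO#1 were Sorbs3, the adhesion adaptor vinexin, at -0.75 (SE 0.18) and Farp1 at -0.62 (SE 0.10), and the next lowest were Lcp1 at -0.57 (SE 0.27), 9930012K11Rik at -0.38 (SE 0.17) and Pdlim2, a PDZ and LIM protein of the actin cytoskeleton, at -0.34 (SE 0.19). In August, Farp1, Pdlim2 and Uggt2, an enzyme of glycoprotein folding control, fell in the same 8 clones as Bmp1, namely MCM2-2A#4, #6, #7 and #8 and WT#3, #6, #7 and #8. Rcbtb2 fell in 10 of the 11. Of genes that rose, Mtrf1, a mitochondrial release factor, Slc15a1, an intestinal peptide transporter, and Sox21, a transcription factor, were each called in 8 August clones and Cysltr2, a leukotriene receptor, in 7. Against the mean of the other August clones in place of WT#1, the fallen genes were fewer, 5 against 19 in MCM2-2A#4 and 3 against 12 in MCM2-2A#8. The share of all genes that fell under that reference is not given here.

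Markers of fibroblasts were low in many of the clones where these genes were low, but not for each gene. Sorbs3 was at -0.24 in MCM2-2A#8 (edgeR, adjusted p = 0.68). The summed level of 8 fibroblast markers was 7.19 to 8.03 CPM in POLE4-KO#1, 11.1 to 13.6 CPM in POLE4-KO#2 and 74.2 to 93.4 CPM in POLE4-KO#3, against 81.5 to 82.8 CPM in WT#1. In August it was 10.6 to 12.3 CPM in MCM2-2A#8, 4.97 to 6.01 CPM in WT#6 and 7.44 to 12.9 CPM in MCM2-2A#4, #6 and #7 and WT#3, #7 and #8, against 53.7 to 74.2 CPM in WT#1, with 17.6 to 28.7 CPM in WT#2 and 63.0 to 90.6 CPM in MCM2-2A#5 and WT#4. Of the markers tested, 4 of 5 were called lower in POLE4-KO#1, 4 of 8 in MCM2-2A#8 and 5 of 8 in WT#6, and up to 3 of the 8 were at 0 in a library. Neural markers, also 8, summed to 193 to 205 CPM in POLE4-KO#1 and 210 to 215 CPM in POLE4-KO#2. They summed to 319 to 355 CPM in POLE4-KO#3, against 318 to 356 CPM in WT#1. In August they summed to 171 to 172 CPM in both MCM2-2A#8 and WT#6, against 193 to 199 CPM in WT#1. The part of either set of markers in the low levels of Bmp1, Farp1, Sorbs3 and Pdlim2 was not tested. Over the stretch as a whole, MCM2-2A#7 and WT#3, with fibroblast sums of 8.38 to 8.63 and 7.64 to 9.37 CPM, had medians of -0.20 and -0.13.

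**Figure D5:**
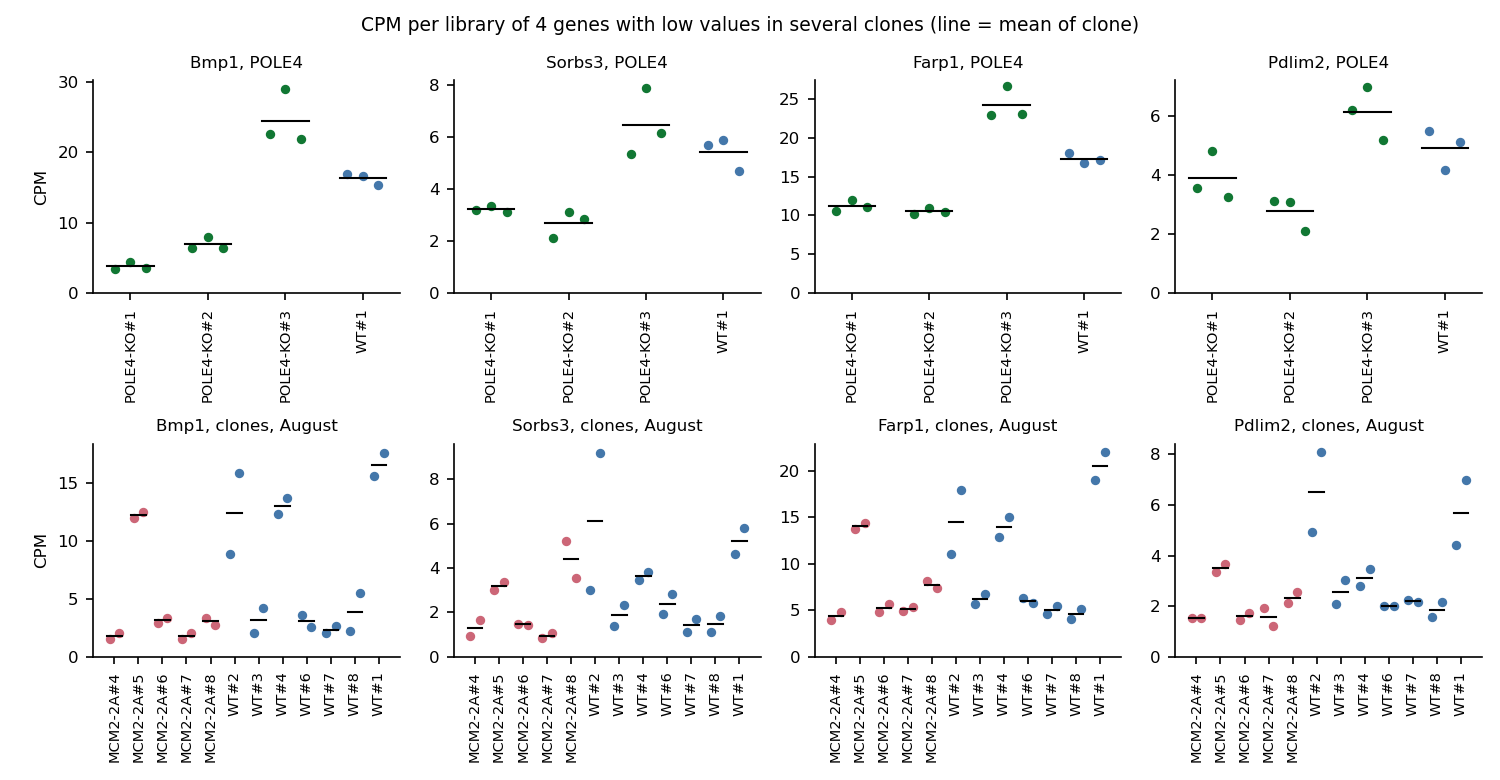
CPM (y axis, from 0) of Bmp1, Sorbs3, Farp1 and Pdlim2 in every library of the POLE4 experiment (upper row) and of the August clones (lower row), with 1 point per library, a line at the mean of each clone and WT#1 last. Bmp1 lies at 3.41 to 8.02 CPM in POLE4-KO#1 and POLE4-KO#2 and at 21.9 to 29.0 CPM in POLE4-KO#3, against 15.4 to 17.0 CPM in WT#1.

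Several members work in complexes whose other subunits are encoded elsewhere, and the medians of those subunits in POLE4-KO#1 ran from -0.051 to 0.12. The 11 exosome genes outside the stretch had a median log2 fold change of -0.0019, while Dis3 was at 1.19. The 29 other Mediator genes had a median of 0.058, against 0.42 for Med4, and the 7 other genes of the COG complex, a tether of Golgi vesicles, had a median of 0.12, against 0.56 for Cog3. The other TFIIF gene was at 0.12, against 0.74 for Gtf2f2, and the 2 other genes of succinyl-CoA ligase, an enzyme of the citric acid cycle, had a median of -0.051, against 0.46 for Sucla2. Of 12 RNA polymerase III genes 1 was called higher, Polr3gl at 1.27, an alternative subunit of the enzyme. The 22 genes of the RB and E2F list stood higher, with a median of 0.23 and 17 above 0. Of them 2 were called higher and 1 lower: Ccne2, a cyclin of the G1 to S transition, at 0.60, Rbl2, a paralogue of Rb1, at 0.76 and the cell cycle inhibitor Cdkn1a at -0.90. In MCM2-2A#8 the medians outside the stretch were 0.24 (exosome), 0.12 (Mediator), 0.15 (COG) and 0.11 (RB and E2F). In WT#6 they were 0.22, 0.12, 0.25 and 0.18 in the same order. The exosome genes had 0.19 in WT#8, a clone without a high median over the stretch. Single genes of the RB and E2F list moved more than these medians. Of its 22 genes, 4 were called higher and 2 lower in MCM2-2A#8, and 3 higher and 3 lower in WT#6. In clones without a high median, 2 were higher and 1 lower in WT#8, and 0 higher and 3 lower in MCM2-2A#4. The exosome gene Dis3l was called higher in MCM2-2A#8 and in MCM2-2A#4. In MCM2-2A#8 and WT#6, Polr3gl rose by 1.66 and 2.20, Med14 fell by 0.92 and 0.65, and Med19 rose by 0.62 and 0.59, but each was also called in clones without a high median. Polr3gl rose in MCM2-2A#4, WT#3, WT#4 and WT#7 too, Med14 fell in MCM2-2A#4, #6 and #7 and WT#7, and Med19 rose in MCM2-2A#7, WT#3 and WT#8.

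In the rescue experiment, MCM2-2A#2 had a median log2 fold change over WT#1 of -0.085, with 26 of 94 genes above 0, where 47.2% of all genes tested were, and 0 genes higher and 1 lower, where 1.68% of all genes tested were higher and 1.08% lower. DESeq2 called 1 higher, and 30 members had an unadjusted p below 0.05, as 29.8% of all genes did. At an adjusted p below 0.05 without a fold limit 5 members were higher and 16 lower, where 6.37% and 8.48% of all genes were. The gene that fell was Fgf17, by 0.74 (adjusted p = 0.00013), with 15.8, 20.2, 17.4 and 18.4 CPM, against 29.2, 29.1, 30.7 and 31.0 CPM in WT#1, so the lines did not overlap. In MCM2-R#2 over MCM2-2A#2 the median was 0.045 and 0 genes were called in either direction by edgeR or DESeq2, where 0.522% of all genes were higher and 0.833% lower, with 28 members at an unadjusted p below 0.05, against 24.5% of all genes. Without a fold limit, at an adjusted p below 0.05, 11 members were higher and 1 lower, where 5% and 3.73% of all genes were. Fgf17 was higher by 0.48 in that comparison (adjusted p = 0.0067), under the fold limit, with 24.8, 28.1, 20.7 and 26.2 CPM in MCM2-R#2. In MCM2-R#2 over WT#1 the median was -0.021, 0 genes were called by either tool, where 0.0293% of all genes were higher and 0.27% lower, and 12 members had an unadjusted p below 0.05, as 11.2% of all genes did. At an adjusted p below 0.05 without a fold limit, which 0.123% of all genes passed as higher and 0.54% as lower, 2 members were lower, Pibf1 (-0.38, adjusted p = 0.037) and Mzt1 (-0.37, adjusted p = 0.049).

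Over clones, MCM2-2A against WT gave a median log2 fold change of -0.12 with 22 genes above 0. MCM2-2A#1 and WT#1 each entered in more than 1 batch, so the units summed per clone and batch are not all separate clones. January held only MCM2-2A clones, so with batch as a covariate it held no comparison of the genotypes. WT#1 was the only WT clone in March. No gene was called in either direction by edgeR, where 0.609% of all genes tested were higher and 0.0671% lower, 8 members and 21.9% of all genes had an unadjusted p below 0.05, and DESeq2 called 1 lower. Without a fold limit and at an adjusted p below 0.05, which 2.76% of all genes passed as higher and 2.26% as lower, 2 members were lower: Slain1, a microtubule plus-end protein, fell by 0.43 (adjusted p = 0.030) and Rcbtb2 fell by 0.65 (adjusted p = 0.038). The median depended on single clones: it was -0.24 without MCM2-2A#8, -0.015 without WT#6 and -0.023 without both WT#6 and WT#8, the WT clones with low Mcm2. The calls over all genes depended on WT#1. Without it 0 members were called in either direction, where 0.0566% of all genes were higher and 0.00471% lower.

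The March and January clones were on the low side. MCM2-2A#1 in March had a median of -0.19, and 7 genes rose and 8 fell, where 4.25% of all genes rose and 0.925% fell. Without replicate 5 of MCM2-2A#1, 4 in place of 7 genes rose, where 2.56% of all genes did. Its fallen genes included Fgf17 (-1.17), Abcc4 (-0.94), Dis3 (-0.65), Mzt1 (-0.62) and Bora (-0.61), which were among the high ones in POLE4-KO#1, and its risen genes included Bmp1 (1.35), Sorbs3 (1.04), Pdlim2 (1.04) and Farp1 (0.95), which were among the low ones. Dis3 had 135, 138 and 124 CPM in MCM2-2A#1 in March, against 207, 199 and 203 CPM in WT#1. Its fibroblast markers summed to 68.4 to 97.2 CPM, against 45.7 to 66.8 CPM in WT#1. MCM2-2A#3 in March had a median of -0.29, and 3 genes rose and 19 fell, where 5.34% of all genes rose and 7.53% fell. Mzt1, Bora, Dis3 and Pibf1 stood at -0.53 to -0.31 in MCM2-2A#3, without a call. Both March clones share the WT#1 libraries, so a low or high WT#1 value enters each of them. WT#1 averaged 40.8 CPM for Mzt1, 44.4 for Bora, 203 for Dis3 and 23.7 for Fgf17 in March. In August it averaged 26.0, 29.9, 160 and 14.2 CPM. MCM2-2A#2 over MCM2-2A#1 in January had a median of -0.13, 0 genes were called by edgeR or DESeq2, where 0.0403% of all genes were higher and 0.0151% lower, and 19 members and 22.2% of all genes had an unadjusted p below 0.05. Without 1 library of MCM2-2A#2 (replicate 1) 2 genes were called higher and 10 lower, where 2.25% and 5.02% of all genes were.

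Some members overlap a neighbour, and the strand setting of the counting is not given in the sources used here, so reads of such pairs may be shared. Dis3 and Pibf1 overlap by 347 bases, Wbp4 and Elf1 by 327, Xpo7 and Dok2 by 593, and Rb1 holds all of Lpar6 and overlaps Rcbtb2 by 24171 bases. Lpar6, a receptor for lysophosphatidic acid, was at -0.06 in POLE4-KO#1, where Rb1 was at 1.62, and fell by 1.73 in MCM2-2A#8 and 1.69 in WT#6, where Rb1 was at 0.40 and 0.06.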

How the data were processed

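The authors deposited 3 tables of raw counts per gene (rescue, POLE4 and clone experiments). The submitters' processing notes name Trimmomatic 0.39, STAR 2.7.1a and, for some samples, featureCounts, with the mm10 build. The strand setting of the counting is not given in the sources used here. Of 68 columns, 65 were used and 3, whose line number belongs to no sample, were not. Names tied the columns to samples, except that the 3 WT#1 columns of the POLE4 table were tied to their group alone and the 4 MCM2-R#2 columns through the study's sample table. Symbols and positions came from GENCODE vM21, whereas the study's methods name vM23.

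Libraries were scaled by TMM from gene rows, low genes were left out with filterByExpr (minimum counts 10 and 15), and the contrasts, 21 in all, were fitted with edgeR 4.0.16 quasi-likelihood tests (R 4.3.3, limma 3.58.1), with Benjamini-Hochberg adjustment over all genes. DESeq2 1.42.0 served as an alternative. An SE was obtained as the size of the log2 fold change over the root of its F statistic. In the comparison of MCM2-2A with WT clones, libraries were summed per clone and batch, and batch was a covariate. Technical runs of a rescue culture were summed. Library medians used log2(CPM + 0.5) against the mean of the reference line of the same batch, so that ratios of low genes are pulled towards 0. CPM of clones are compared within a table only, and the levels of Tpm3-rs7 in the rescue and clone experiments are given as a check.

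The members and gene lists were chosen with earlier results of these data known. Named genes are the 10 most abundant members, the 6 highest and 6 lowest in POLE4-KO#1, called members of the MCM2 comparisons, members of role lists, genes at the limits, and called partners. Slc15a1 and Cysltr2 were named after their values were seen, as were counts per August clone. The alternatives were other scalings and filters, DESeq2, a stricter CPM limit, leaving out libraries or clones, another reference in August and a replicate block.

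On simulated data with log2 changes of size 1 in 100 genes, the fits called 99 (POLE4-KO#1, 16590 genes), 100 (rescue, 17052 genes), 93 (clones by genotype, 21137 genes) and 90 (WT#6 in August, 19739 genes), with 0 in the wrong direction. Replicate numbers were not taken as pairs in the main fits. Among rescue cultures 5 of 12 same-number pairs had correlated deviations above 0.1, as did 10 of 36 other pairs. In August 90 of 132 same-number and 2 of 132 other pairs did, with a lowest same-number correlation of -0.138. Each August clone has 2 libraries that mirror each other. This turns the sign of the other pairs but does not raise the same-number share. Deviations shared by library number were thus seen in August, and a block on that number is given below. The study calls libraries of a clone biological replicates, whereas the labels do not say whether they came from separate cultures.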

Additional observations from a re-analysis of the deposited data

Results flagged for a closer look

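Within the 5 August MCM2-2A clones, MCM2-2A#8 lay apart from the others in the mean of its library medians over the members (0.49 on the log2 scale, the other clones -0.22 to -0.16) and in their summed level (6512 CPM, the others 4012 to 4114 CPM). Within the 7 August WT clones, WT#6 lay apart in the same measures, at 0.573 and 6840 CPM. Each gap exceeded the 95% critical value of Dixon's test, which flags about 1 in 20 groups by chance, and 20 extremes were looked at. The stretch was proposed with earlier results of these tables known, so that rate does not apply and the flags carry no weight as evidence. The measures share genes and libraries, so they are not separate pieces of evidence.

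In the POLE4 experiment every library of POLE4-KO#1 had a member median above 0 (mean 0.6296) and every library of POLE4-KO#2 one below 0 (mean -0.05278). The difference between the 2 clones was not tested, because the stretch was chosen on POLE4-KO#1.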

How the results depend on the processing

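A median over the members counts as moved below when it shifted by more than 0.032, the pooled SD of library medians within a clone, and a count when it changed by over 1.5 times. No median that was moved changed its sign except that of WT#8 under the summed level. As the log2 ratio of summed member CPM, which weights abundant genes, the value was 0.731 in POLE4-KO#1, -0.06889 in POLE4-KO#3, -0.07403 for MCM2-2A over WT clones, -0.09657, -0.08804, -0.1012 and 0.5744 in MCM2-2A#4, #6, #7 and #8, -0.0487, -0.05881 and 0.00056 in WT#3, #7 and #8, and -0.06413 for MCM2-2A#2 over MCM2-2A#1 in January. Without Mzt1, Bora, Dis3 and Pibf1 the POLE4-KO#1 median was 0.6415. With members above 5 CPM only, WT#3 stood at -0.07208 and MCM2-2A#1 in March at -0.2265. Against the mean of the other August clones, MCM2-2A#4 stood at -0.2356, MCM2-2A#5 at -0.1002 and WT#6 at 0.6604. The genotype median was -0.06824 in August alone and, chosen after seeing the data, -0.0226 without WT#6 and WT#8. The cause of these shifts was not tested.

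Leaving out 1 library or clone at a time gave medians of -0.241 to -0.01535 for MCM2-2A over WT clones, -0.213 to -0.184 in MCM2-2A#4, -0.06506 to -0.01387 in WT#2, -0.1626 to -0.08342 in WT#3, 0.5889 to 0.6308 in WT#6, -0.115 to -0.03585 in WT#8 and -0.2043 to -0.1477 in MCM2-2A#1 in March. In POLE4-KO#1 the range was 0.6506 to 0.6906, with 48 to 57 genes called higher, where 2.85% to 3.49% of all genes were. A lone remaining library was assumed to vary like the other groups.

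Against the mean of the other August clones 19 of 22 counts moved. Fallen genes were 5 in place of 19 in MCM2-2A#4, 1 of 15 in MCM2-2A#6, 4 of 18 in MCM2-2A#7, 3 of 12 in MCM2-2A#8, 1 of 14 in WT#3, 3 of 8 in WT#6, 0 of 13 in WT#7 and 6 of 17 in WT#8. The shares of all genes called under that reference are not given here. Fewer calls among the members thus cannot be told apart from fewer calls over all genes. Dropping the fold limit moved 32 of 42 counts. DESeq2 kept 21 of 21 medians and 38 of 42 counts, and gave 5 in place of 3 fallen genes in MCM2-2A#5 and 6 in place of 3 in WT#4. No share over all genes is given beside these DESeq2 counts. No filter on low counts moved 4 counts, leaving out Gm26917, a noncoding RNA, moved 2, and DESeq2 size factors or TMM factors without chromosome 14 moved 0. The largest shift of the all-gene median was 0.0722, with DESeq2. Single libraries in place of clones as units gave 1 gene higher and 1 lower by genotype, in place of 0 and 0.

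With the replicate block on the culture number the rescue medians were -0.08843 for MCM2-2A#2 over WT#1, 0.04523 for MCM2-R#2 over MCM2-2A#2 and -0.02576 for MCM2-R#2 over WT#1. With the block on the rank of the library number within its clone in August, a pairing that the labels do not state, 11 of 11 medians were kept, and fallen genes were 5 in place of 3 in both MCM2-2A#5 and WT#4. The shares of all genes under this block are not given here. No paired analysis was possible because, in the POLE4 experiment, the WT#1 columns carry other numbers than their titles. The block was not run on the March and January comparisons.

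Depth limits the members between 1 and 10 CPM, whose ratios rest on few counts, and 2 libraries per August clone limit each call there.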

Other observations

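The first run of the stretch, 20 genes from Bin3 to Gfra2 next to the 70 Mb limit, was looked at in the 7 August clones where the 180 genes between 47 and 70 Mb were low. Its median log2 fold change was -0.45 in MCM2-2A#4, -0.37 in MCM2-2A#6, -0.45 in MCM2-2A#7, -0.33 in WT#3, -0.32 in WT#7, -0.37 in WT#8 and -0.25 in WT#2. The median library ratio between 47 and 70 Mb was -0.85 to -0.81 in these clones. In the same clones the 35 genes from Fndc3a to Sugt1 had medians of -0.070 to 0.060. In MCM2-2A#5 and WT#4, where the genes between 47 and 70 Mb had medians of 0.011 and 0.036, the first run stood at -0.20 and -0.011. These values were set side by side after they had been seen, all of them rest on the same WT#1 libraries, and no test was run.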
